A study of Mus musculus with 12 samples.

Results

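The constitutive proteasome subunit genes are the genes whose symbols start with Psma, Psmb, Psmc or Psmd followed by a number, without the interferon-induced Psmb8, Psmb9 and Psmb10. The rule found 36 of the 41009 genes listed, of which 16 code for the 20S core particle and 20 for the 19S regulatory particle. The symbol alone decided which genes entered, although the rule was set with earlier results of these data known. Of the 36, 34 reached at least 1 FPKM (fragments of a gene, scaled by transcript length and by the fragments mapped in the library) in at least 3 of the 12 libraries and were tested. The other two were Psma8, the form of an alpha subunit made in testis, and Psmb11, the catalytic beta subunit of thymic epithelium, which averaged 0.131 and 0.0292 FPKM over the 12 libraries. Each of the 34 had at least 3.94 FPKM in every library, so none passed the filter through 1 group alone.

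The RNA came from tumours of 4T1 cells, a mammary carcinoma line of the mouse that here carried mCherry, which grew in mammary fat pads. The mice were BALB/c females aged 4 to 5 weeks, and the proteins were given into the peritoneum from day 7 after the cells. The 4 groups of 3 libraries received VHH-OD-Fc at 3.5 mg/kg, VHH-PD-1-Fc at 2.6 mg/kg, VHH-OD-PD-1-Fc at 4.3 mg/kg, or the control protein Ctrl-Fc at 5 mg/kg (Ctrl). VHH stands for a single-domain antibody, also called a nanobody, and Fc for the tail of an antibody. OD is not spelled out in the labels, although the title of the series speaks of nanobodies to endogenous digoxin-like substances. PD-1 is a receptor that restrains T cells. The series' design text instead names LLC tumours and digoxin doses; it conflicts with the sample labels, which were followed here, and the conflict could not be resolved. All 4 groups carried the same tumour line and an Fc protein. In mg/kg the dose of the combined protein differed from those of both single ones, and the labels give no molar doses. The 4 groups therefore cannot be taken as a strict factorial. Nothing in the labels ties each library of a group to an animal of its own. The p-values therefore rest on library-to-library spread, which may be technical.

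Depth, estimated from the steps of low values, was 21.8 to 30.5 M fragments a library, and whole counts could not be recovered. The FPKM of a library summed to 327792 to 345596 in VHH-OD-Fc and Ctrl and to 388142 to 401179 in both groups given a PD-1 binder, and the median of all 14306 genes tested lay at -0.19 in VHH-PD-1-Fc against Ctrl and at -0.14 in VHH-OD-PD-1-Fc relative to Ctrl (log2). Replicates were most alike in VHH-OD-PD-1-Fc, with a median SD over all genes of 0.0747 on the log2(FPKM + 1) scale, against 0.247 in VHH-PD-1-Fc, 0.123 in VHH-OD-Fc and 0.140 in Ctrl. Another 3 libraries stood apart, VHH-OD-Fc replicate 2 (skeletal muscle markers), VHH-PD-1-Fc replicate 2 and Ctrl replicate 1 (14.3 FPKM of the tumour epithelium marker Epcam), and counts without them are given with each comparison. The tumour epithelium markers Epcam, Krt8, Krt18, Krt7 and Cdh1 summed to 2224 to 2351 FPKM in VHH-OD-Fc, 1927 to 3631 in VHH-PD-1-Fc, 2524 to 2586 in VHH-OD-PD-1-Fc and 1181 to 2661 in Ctrl. In such bulk RNA, fewer cells of a type and less RNA per cell cannot be told apart. The labels name no batch, so a batch that followed the PD-1 binder and the binder itself cannot be told apart.

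The proteasome is the protease that breaks down proteins tagged with ubiquitin. Its 20S core is a barrel of stacked rings, in which alpha subunits (Psma genes) form the outer rings and the gate, and beta subunits (Psmb genes) form the inner rings with the active sites of Psmb5, Psmb6 and Psmb7. The 19S regulatory particle caps the barrel: a base with a ring of ATPases (Psmc genes) unfolds the substrate, scaffold proteins and a ubiquitin receptor sit on the base, and a lid (other Psmd genes) holds the deubiquitinase Psmd14. Psmd5, Psmd9 and Psmd10 are chaperones that help to build the base and leave the finished particle. The transcription factor NRF1, coded by Nfe2l1, is known to raise many subunit genes together when proteasomes are inhibited. Interferon gamma is known to induce Psmb8, Psmb9 and Psmb10, which take the places of the constitutive catalytic subunits Psmb5, Psmb6 and Psmb7.

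The levels spanned a wide range among the members. Psma6 was the highest of the 36 at a mean of 239.5 FPKM over the 12 libraries, followed by the noncatalytic beta subunits Psmb4 at 150.3 FPKM and Psmb2 at 142 FPKM and the alpha subunit Psma5 at 138 FPKM. The highest ATPase was Psmc1 at 99.0 FPKM and the highest scaffold gene was Psmd2 at 89.9 FPKM. The lowest of the tested members were the base chaperones Psmd5 at 9.76 FPKM and Psmd9 at 4.57 FPKM. Among the 34 tested members, Psmc2 varied least, its highest library being 1.19 times its lowest, and Psmc6 varied most, at 2.55 times. Psma5 is uncertain in level, because the pseudogene Psma5-ps was itself listed at 8.79 to 17.8 FPKM and reads could be split between them. In all, the 36 genes held 0.545 to 0.580% of the summed FPKM in VHH-PD-1-Fc libraries, 0.578 to 0.586% in VHH-OD-PD-1-Fc, 0.581 to 0.615% in VHH-OD-Fc and 0.592 to 0.638% in Ctrl.

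**Figure D1:**
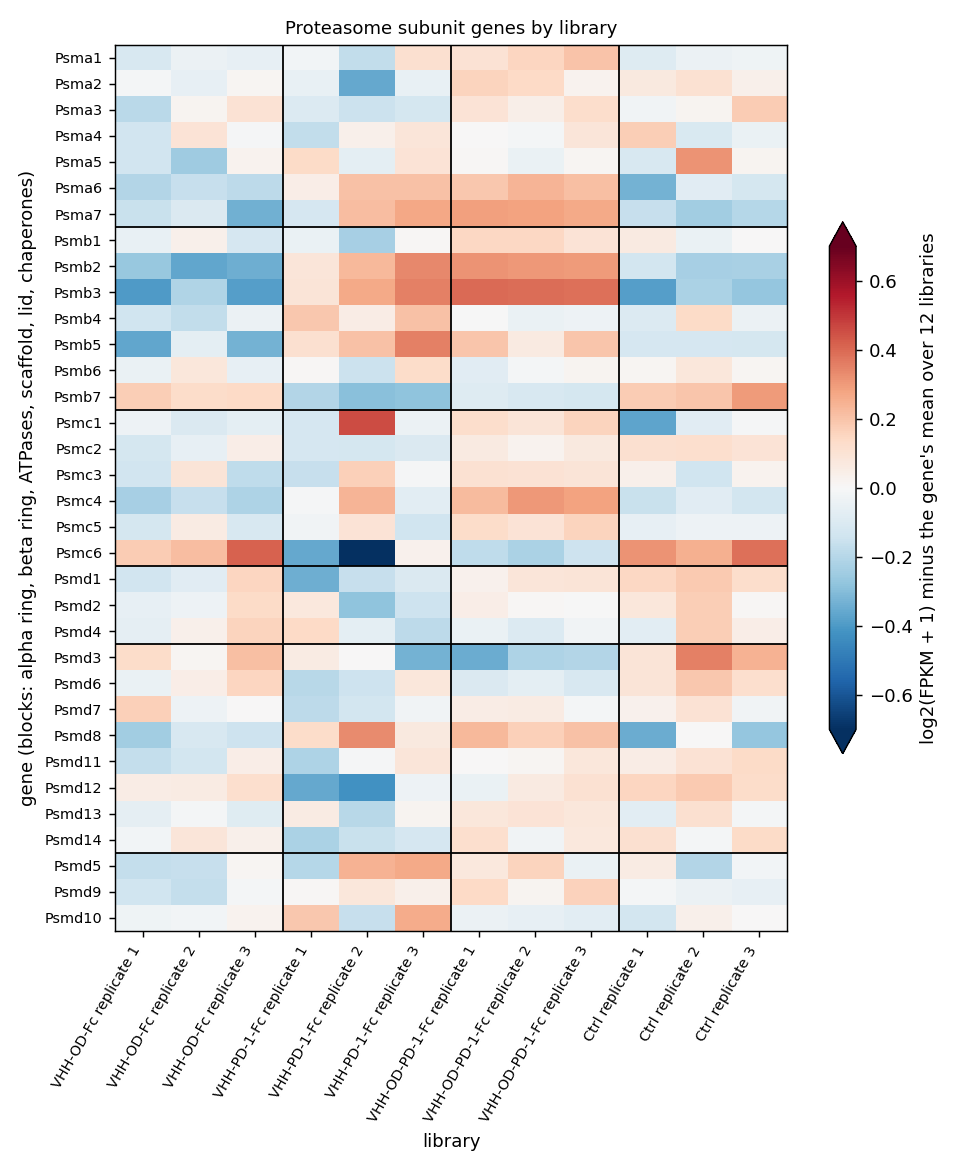
Heat map of the 34 tested subunit genes (rows, in blocks by subcomplex) in the 12 libraries (columns, by group); colour gives log2(FPKM + 1) minus that gene's mean over the 12 libraries. Psmb3 and Psmb2 are above their means in each library of VHH-PD-1-Fc and of VHH-OD-PD-1-Fc and below them in each library of VHH-OD-Fc and Ctrl, while Psmb7 shows the opposite.

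With VHH-PD-1-Fc, subunit genes moved in both directions against Ctrl, and the balance of higher to lower calls moved with the scaling (6 and 7 on FPKM, 1 and 18 after rescaling to TPM, 13 and 2 with median-of-ratios scaling). Over all 14306 genes, higher and lower calls were 2092 and 4615, 1346 and 6800, and 3145 and 2879 in the same order. Of the 34 tested, 6 rose and 7 fell (limma on log2(FPKM + 1), Benjamini-Hochberg adjusted p under 0.05 over all genes tested), which is 38.2% of them, against 46.9% of all genes tested. Over all genes 14.6% were called higher and 32.3% lower, and the median log2 fold change was -0.03 over the members and -0.19 over all genes. The 6 that rose were Psmb3, Psmb2 and Psmb5 of the beta ring, Psma6 and Psma7 of the alpha ring, and Psmd8 of the lid. The 7 that fell were Psmb7 of the beta ring, the ATPases Psmc6 and Psmc2, the scaffold gene Psmd1, and Psmd12, Psmd3 and Psmd14 of the lid.

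The largest rise was that of Psmb3, a noncatalytic beta subunit, with 83.4, 94.5 and 100.1 FPKM in VHH-PD-1-Fc libraries, against 59.6, 66.9 and 64.6 FPKM in Ctrl libraries (log2 fold change 0.53, SE 0.09, adjusted p = 0.00111). Every VHH-PD-1-Fc library was above every Ctrl library. Psmb2, another noncatalytic beta subunit, had 149, 164 and 176 FPKM in VHH-PD-1-Fc libraries, against 128, 119 and 119 FPKM in Ctrl libraries (log2 fold change 0.41, SE 0.08, adjusted p = 0.00234). Psmd8, a structural lid subunit, had 63.1, 72.7 and 60.6 FPKM in VHH-PD-1-Fc libraries, against 45.1, 57.7 and 47.6 FPKM in Ctrl libraries (log2 fold change 0.38, SE 0.11, adjusted p = 0.0128). The groups did not overlap for Psmb2 or Psmd8 either. Psmb5, Psma6 and Psma7 rose by 0.34, 0.33 and 0.32 on the log2 scale (adjusted p = 0.0154, 0.00984 and 0.0292), and no VHH-PD-1-Fc library of these genes was below the highest Ctrl library.

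The largest fall was that of Psmc6, an ATPase of the base, with 25.4, 17.2 and 33.5 FPKM in VHH-PD-1-Fc libraries, against 41.0, 39.2 and 43.2 FPKM in Ctrl libraries (log2 fold change -0.72, SE 0.18, adjusted p = 0.00785). The VHH-PD-1-Fc libraries were all below the Ctrl libraries but far apart among themselves, replicate 2 being the lowest. Psmb7, which carries the trypsin-like active site, had 22.0, 20.7 and 20.8 FPKM in VHH-PD-1-Fc libraries, against 29.0, 29.3 and 31.7 FPKM in Ctrl libraries (log2 fold change -0.48, SE 0.07, adjusted p = 0.000489). Its groups were well separated and the spread within each was small. Psmd12, a structural lid subunit, had 33.2, 31.8 and 41.9 FPKM in VHH-PD-1-Fc libraries, against 47.8, 48.9 and 46.9 FPKM in Ctrl libraries (log2 fold change -0.43, SE 0.10, adjusted p = 0.00629). Psmd14, the deubiquitinase of the lid, had 29.1, 30.4 and 31.3 FPKM in VHH-PD-1-Fc libraries, against 36.9, 33.7 and 37.4 FPKM in Ctrl libraries (log2 fold change -0.24, SE 0.08, adjusted p = 0.0260), and again no library overlapped. Psmd1, Psmd3 and Psmc2 fell by 0.35, 0.32 and 0.22 on the log2 scale (adjusted p = 0.0119, 0.0419 and 0.0263). Psmc2 was the tightest of these, at 25.9 to 26.2 FPKM in VHH-PD-1-Fc and 30.2 to 30.6 FPKM in Ctrl.

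The other 21 members tested were not called in VHH-PD-1-Fc against Ctrl. They included 5 alpha subunits, with Psma2 at -0.22 and Psma1 at 0.03 (log2 fold change), and the ubiquitin receptor gene Psmd4 at -0.09. All 3 base chaperones were among them, with Psmd5 at 0.16, Psmd9 at 0.08 and Psmd10 at 0.13. By block, the counts of higher and lower calls were 2 and 0 of 7 alpha subunits, 3 and 1 of 7 beta subunits, 0 and 2 of 6 ATPases, 0 and 1 of 3 scaffold and ubiquitin receptor genes, and 1 and 3 of 8 lid genes. These directions by block moved with the scaling: the lid had 0 higher and 7 lower calls after rescaling to TPM and 1 and 0 with median-of-ratios scaling, and the alpha ring had 0 and 2 and then 3 and 0. Libraries of VHH-PD-1-Fc and Ctrl did not overlap for 8 members higher and 10 lower, against 15.5% and 33.7% of all genes (49.1% in either direction).

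Over 24 alternative settings, Psmb3 was called higher and Psmb7 lower in VHH-PD-1-Fc against Ctrl in 24 of 24 and 24 of 24. Psmc6 was called lower in 23 of 24, Psmd12 in 22 of 24, and Psmb2 was called higher in 21 of 24, its adjusted p being 0.600 once trends with transcript length and GC content were removed. Psmb5 was called in 20 of 24, and its value turned to -0.023 with those trends removed. Psma7 and Psmd3 were called in 12 of 24 and 10 of 24. With length and GC trends removed, Psmb2, Psma6, Psma7, Psmb5 and Psmc2 were no longer called (adjusted p = 0.367 to 0.873). After rescaling to TPM, Psmb2, Psmb5, Psma6, Psma7 and Psmd8 were not (adjusted p = 0.0790 to 0.431), and with median-of-ratios scaling Psmd12, Psmd1, Psmd3, Psmd14 and Psmc2 were not (0.0973 to 0.966). Quantile normalization ended the calls of Psmb2, Psma6, Psma7, Psmc2, Psmd1, Psmd3 and Psmd14 (0.0501 to 0.795). Single libraries ended 4 calls: that of Psma7 was lost without VHH-PD-1-Fc replicate 2 or 3 or Ctrl replicate 2 or 3 (adjusted p of up to 0.0811), and that of Psmc2 without any 1 of the Ctrl libraries (up to 0.0648). That of Psmd14 was lost without VHH-PD-1-Fc replicate 1 or Ctrl replicate 1 or 3 (up to 0.0893). That of Psmd3 was lost without VHH-PD-1-Fc replicate 3, any 1 of the VHH-OD-PD-1-Fc libraries, VHH-OD-Fc replicate 1, or Ctrl replicate 2 or 3 (up to 0.133). Without the 3 libraries that stood apart, 3 members were called higher and 5 lower. In a fit of VHH-PD-1-Fc and Ctrl alone, which leaves out the closely alike VHH-OD-PD-1-Fc libraries, 10 members lost their call. Psmb3 and Psmb2 stayed higher and Psmb7 lower, while 1229 of all 14306 genes were called higher and 2592 lower. Fibroblast markers were lower in VHH-PD-1-Fc for 5 of 5 genes (sums of 215 to 442 FPKM against 542 to 781 in Ctrl), and endothelial markers for 3 of 3 tested (9.35 to 11.0 against 18.1 to 24.8), none of them at 0. Macrophage markers summed to 847 to 2430 FPKM in VHH-PD-1-Fc and 677 to 1223 in Ctrl, and T cell markers to 6.55 to 16.8 FPKM in VHH-PD-1-Fc and 13.5 to 23.2 in Ctrl, with 1 of 5 genes of each list lower. Neutrophil markers were lower for 2 of 5 genes (398 to 1200.2 FPKM in VHH-PD-1-Fc and 619.9 to 910.5 in Ctrl), and tumour epithelium markers were higher for 1 of 5. The part of these cell types in the subunit values was not tested.

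The promoters of 4 of these genes are shown, the largest rises and the largest falls in VHH-PD-1-Fc against Ctrl among members with an entry in the RefSeq table (GRCm38.p6), because NRF1 is known to act through antioxidant response elements in subunit promoters. Each runs 5′ to 3′ on the gene's strand over the 250 bases before and 50 after the start. The sequences lie at chr11:97703184-97703483 on the plus strand for Psmb3, chr7:29180624-29180923 on the minus strand for Psmd8, chr14:45329574-45329873 on the plus strand for Psmc6 and chr11:107479278-107479577 on the plus strand for Psmd12. Capitals mark matches on either strand to TGANNNNGC, a loose pattern for the core of that element, and to CCAAT, the box bound by the factor NF-Y.
Psmb3: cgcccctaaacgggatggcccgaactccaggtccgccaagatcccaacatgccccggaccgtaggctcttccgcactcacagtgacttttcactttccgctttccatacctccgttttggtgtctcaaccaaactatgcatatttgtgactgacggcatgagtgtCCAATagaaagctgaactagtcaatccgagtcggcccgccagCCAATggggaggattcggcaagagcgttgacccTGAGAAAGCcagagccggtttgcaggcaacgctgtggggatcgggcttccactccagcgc
Psmd8: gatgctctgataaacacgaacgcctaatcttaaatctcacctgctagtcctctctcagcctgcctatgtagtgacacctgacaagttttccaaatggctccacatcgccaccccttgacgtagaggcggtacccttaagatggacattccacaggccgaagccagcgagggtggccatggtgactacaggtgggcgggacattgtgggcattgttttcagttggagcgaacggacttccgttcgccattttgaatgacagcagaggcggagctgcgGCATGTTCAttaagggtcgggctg
Psmc6: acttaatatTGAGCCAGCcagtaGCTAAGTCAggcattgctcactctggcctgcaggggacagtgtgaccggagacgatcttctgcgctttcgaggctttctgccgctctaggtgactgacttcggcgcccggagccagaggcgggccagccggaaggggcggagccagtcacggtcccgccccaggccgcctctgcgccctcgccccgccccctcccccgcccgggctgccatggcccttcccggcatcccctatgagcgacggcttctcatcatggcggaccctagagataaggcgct
Psmd12: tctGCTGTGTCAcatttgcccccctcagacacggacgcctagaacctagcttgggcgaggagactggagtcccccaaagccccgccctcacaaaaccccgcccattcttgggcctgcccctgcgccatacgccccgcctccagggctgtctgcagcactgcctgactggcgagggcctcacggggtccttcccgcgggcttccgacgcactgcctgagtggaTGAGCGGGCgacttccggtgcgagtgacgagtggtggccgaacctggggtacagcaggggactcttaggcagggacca
Only the Psmb3 promoter among these 4 has CCAAT matches, and no match printed overlaps another. Of the 36 genes 29 had an entry, 31 entries in all, since Psma6 and Psmc2 have several starts, and Psmb2 and Psmb7 are named only. TGANNNNGC was found in 18 of the 31 entries, or 58.1%, against 41.3% of all 32851 promoters of the same length. The entries with it were 6 of 6 for members that rose with VHH-PD-1-Fc, 4 of 6 for members that fell and 7 of 18 for members not called, and the remaining entry belongs to a member that was not tested. Entries are not genes: Psma6 counts more than once among those that rose, and Psmc2 among those that fell. Psmb2, which rose, and Psmb7 and Psmd3, which fell, have no entry. The calls behind this split moved with the scaling, and a part of NRF1 was not tested. CCAAT was found in 12 of the 31, or 38.7%, against 37.4% of all promoters. Matches to so short a pattern are a description and mark no bound site.

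**Figure D2:**
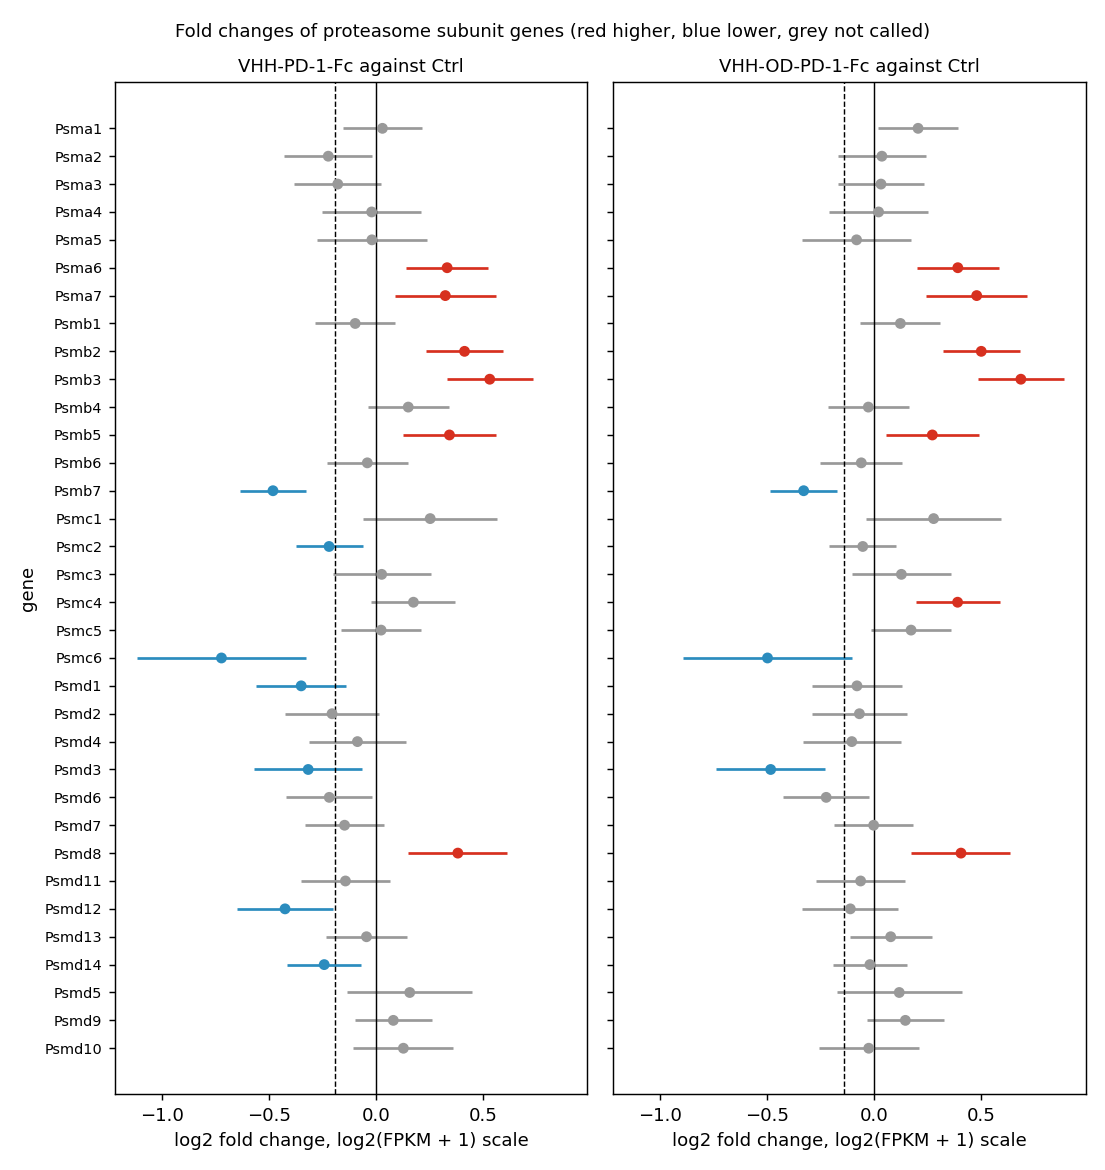
Log2 fold change of each of the 34 tested subunit genes in VHH-PD-1-Fc against Ctrl and in VHH-OD-PD-1-Fc relative to Ctrl, with 95% intervals; red marks genes called higher, blue genes called lower, grey genes not called, and the dashed line the median of all genes tested. Psmb3 is the highest in both panels (0.53 and 0.68) and Psmc6 the lowest (-0.72 and -0.50); Psmb5, red in both, turns to -0.023 and -0.067 once length and GC trends are removed.

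With VHH-OD-PD-1-Fc more subunit genes rose than fell against Ctrl on FPKM (7 and 3) and with median-of-ratios scaling (12 and 0), and fewer after rescaling to TPM (2 and 14). Over all 14306 genes, higher and lower calls were 2158 and 3878, 3006 and 2593, and 1415 and 6192 in the same order. Of the 34, 7 rose and 3 fell, or 29.4%, against 42.2% of all genes (15.1% higher and 27.1% lower), and the median log2 fold change was 0.03 over the members and -0.14 over all genes. These values share the Ctrl libraries with those above. Psmb3 had 103, 103 and 103 FPKM in VHH-OD-PD-1-Fc libraries, against 59.6, 66.9 and 64.6 FPKM in Ctrl libraries (log2 fold change 0.68, SE 0.09, adjusted p = 0.000351). Psmb2 had 174, 173 and 172 FPKM in VHH-OD-PD-1-Fc libraries, against 128, 119 and 119 FPKM in Ctrl libraries (log2 fold change 0.50, SE 0.08, adjusted p = 0.000992). Psma7, an alpha subunit, had 120.3, 119.9 and 118 FPKM in VHH-OD-PD-1-Fc libraries, against 88.0, 82.9 and 85.7 FPKM in Ctrl libraries (log2 fold change 0.48, SE 0.11, adjusted p = 0.00508). For each of these, libraries of VHH-OD-PD-1-Fc were nearly equal and all above the highest Ctrl library.

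The ATPase Psmc4 rose to 71.7 to 75.8 FPKM in VHH-OD-PD-1-Fc, against 54.9 to 58.1 FPKM in Ctrl (log2 fold change 0.39, SE 0.09, adjusted p = 0.00575). Psmd8, Psma6 and Psmb5 rose by 0.40, 0.39 and 0.27 on the log2 scale (adjusted p = 0.0105, 0.00487 and 0.0456). The 3 that fell were Psmc6, Psmd3 and Psmb7. Psmc6 had 28.9, 28.0 and 29.6 FPKM in VHH-OD-PD-1-Fc libraries, against 41.0, 39.2 and 43.2 FPKM in Ctrl libraries (log2 fold change -0.50, SE 0.18, adjusted p = 0.0448). Psmd3, a structural lid subunit, had 28.4, 31.3 and 31.5 FPKM in VHH-OD-PD-1-Fc libraries, against 38.9, 46.8 and 43.3 FPKM in Ctrl libraries (log2 fold change -0.48, SE 0.12, adjusted p = 0.00690). Psmb7 had 23.9, 23.6 and 23.4 FPKM in VHH-OD-PD-1-Fc libraries, against 29.0, 29.3 and 31.7 FPKM in Ctrl libraries (log2 fold change -0.33, SE 0.07, adjusted p = 0.00413). No VHH-OD-PD-1-Fc library of these genes reached the lowest Ctrl library. Psmd14 was not called, with 37.0, 33.5 and 36.0 FPKM in VHH-OD-PD-1-Fc and overlapping values in Ctrl (log2 fold change -0.02, 95% interval -0.19 to 0.15).

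By block, higher and lower calls in VHH-OD-PD-1-Fc relative to Ctrl were 2 and 0 of 7 alpha subunits, 3 and 1 of 7 beta subunits, 1 and 1 of 6 ATPases, 0 and 0 of 3 scaffold and receptor genes, 1 and 1 of 8 lid genes and 0 and 0 of 3 base chaperones; after rescaling to TPM the alpha ring had none, and the lid had 0 higher and 6 lower. Libraries did not overlap for 13 members higher and 7 lower, against 23% and 41.4% of all genes (64.4% in either direction). Psmb3 was called in 24 of 24 settings, Psmc4, Psmd3 and Psmd8 in 22 of 24 each, and Psmb5 in 10 of 24, with a value of -0.067 once length and GC trends were removed. Psmc6 was called in 11 of 24, and its call was lost, with an adjusted p of up to 0.115, when any 1 library other than VHH-PD-1-Fc replicate 2 or 3 was left out. The Psmb5 call was lost, with an adjusted p of up to 0.131, without VHH-OD-Fc replicate 1 or 3, any 1 of the VHH-OD-PD-1-Fc libraries or any 1 of the Ctrl libraries. With length and GC trends removed, Psmb2 was at 0.13, Psma6 at 0.12, Psma7 at 0.31 and Psmb7 at -0.20 (log2 fold change), and none of these nor Psmb5 was called (adjusted p = 0.0545 to 0.638). After rescaling to TPM, Psma6, Psma7, Psmb5, Psmc4 and Psmd8 were not called (0.0584 to 0.711), with median-of-ratios scaling Psmb7, Psmc6 and Psmd3 were not (0.0759 to 0.129), and with quantile normalization Psmb2, Psma6 and Psmb5 were not (0.0565 to 0.394). When the 3 alike VHH-OD-PD-1-Fc libraries were taken as 1 sample, Psmb3 was the 1 member still called, and without the 3 libraries that stood apart the counts were 7 and 3. Endothelial markers were again lower for 3 of 3 genes tested (10.1 to 12.4 FPKM in VHH-OD-PD-1-Fc), fibroblast, macrophage and T cell markers for 1 of 5 each, B cell markers for 1 of 2 tested (Cd79a was at 0 in VHH-OD-PD-1-Fc replicate 1), and neutrophil markers higher for 2 of 5 (1895 to 1952 FPKM in VHH-OD-PD-1-Fc against 619.9 to 910.5 in Ctrl), and their part in these values was not tested.

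Against VHH-OD-Fc, VHH-OD-PD-1-Fc gave 7 members higher and 2 lower, or 26.5%, against 39.9% of all genes (15.4% higher and 24.5% lower). After rescaling to TPM the counts were 3 and 7, against 1369 and 5616 of all 14306 genes. With median-of-ratios scaling they were 15 and 0, against 2888 and 2537 of all genes. The median log2 fold change was 0.11 over the members and -0.11 over all genes. Psmb3 had 103, 103 and 103 FPKM in VHH-OD-PD-1-Fc libraries, against 59.2, 67.6 and 59.7 FPKM in VHH-OD-Fc libraries (log2 fold change 0.72, SE 0.09, adjusted p = 0.000313). Psmb2 had 174, 173 and 172 FPKM in VHH-OD-PD-1-Fc libraries, against 116, 109 and 109.9 FPKM in VHH-OD-Fc libraries (log2 fold change 0.63, SE 0.08, adjusted p = 0.000355). Psma7 had 120.3, 119.9 and 118 FPKM in VHH-OD-PD-1-Fc libraries, against 88.3, 91.6 and 77.7 FPKM in VHH-OD-Fc libraries (log2 fold change 0.48, SE 0.11, adjusted p = 0.00566). The VHH-OD-PD-1-Fc libraries of all 3 genes were above every VHH-OD-Fc library. Psmc4, Psmb5, Psma6 and Psmd8 rose by 0.47, 0.41, 0.39 and 0.36 on the log2 scale (adjusted p = 0.00232, 0.00821, 0.00498 and 0.0184).

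The 2 members that fell were Psmd3, with 28.4, 31.3 and 31.5 FPKM in VHH-OD-PD-1-Fc libraries, against 40.0, 36.9 and 42.3 FPKM in VHH-OD-Fc libraries (log2 fold change -0.37, SE 0.12, adjusted p = 0.0247), and Psmb7, with 23.9, 23.6 and 23.4 FPKM in VHH-OD-PD-1-Fc libraries, against 28.9, 28.0 and 28.2 FPKM in VHH-OD-Fc libraries (log2 fold change -0.26, SE 0.07, adjusted p = 0.0157). Libraries of the groups did not overlap for either. Psmc6 was lower in each VHH-OD-PD-1-Fc library than in any VHH-OD-Fc library but missed the threshold (log2 fold change -0.45, adjusted p = 0.0681), which it passed after rescaling to TPM, with quantile normalization and with length and GC trends removed. Over all members, libraries did not overlap for 15 higher and 5 lower, against 25.3% and 40.4% of all genes (65.7% in either direction). Psmb3 and Psmb2 were called in 24 of 24 settings each and were the 2 still called with the libraries of VHH-OD-PD-1-Fc as 1 sample. The Psmb7 call was lost, with an adjusted p of up to 0.0563, without VHH-OD-Fc replicate 1 or VHH-OD-PD-1-Fc replicate 2 or 3. The Psmd3 call was lost without VHH-OD-Fc replicate 1 or 3 or any 1 of the VHH-OD-PD-1-Fc libraries (up to 0.0909), and the Psmd8 call without VHH-OD-Fc replicate 1 or VHH-OD-PD-1-Fc replicate 1 or 3 (up to 0.0675). With length and GC trends removed, Psmb5 was at 0.097, Psma6 at 0.13, Psma7 at 0.32, Psmd8 at 0.26 and Psmb7 at -0.14, and none of these was called (adjusted p = 0.0532 to 0.501). After rescaling to TPM, Psma6, Psma7, Psmb5 and Psmd8 were not called (0.0637 to 0.274), with median-of-ratios scaling Psmb7 and Psmd3 were not (0.160 to 0.200), and with quantile normalization Psma6, at 0.084, and Psmd8 were not (0.0854 to 0.456). Without the 3 libraries that stood apart the counts were 11 and 3. Fibroblast markers were lower for 4 of 5 genes (528 to 533 FPKM in VHH-OD-PD-1-Fc and 652 to 1055 in VHH-OD-Fc), endothelial markers for 3 of 3 tested (10.1 to 12.4 and 21.6 to 29.5) and adipocyte markers for 2 of 2 tested (2.18 to 2.62 and 10.7 to 36.9, with Lep at 0 in VHH-OD-PD-1-Fc replicate 1). Macrophage and T cell markers were lower for 1 of 5 each and neutrophil markers higher for 1 of 5 (1895 to 1952 FPKM in VHH-OD-PD-1-Fc and 456 to 1861 in VHH-OD-Fc), and the part of these cell types was not tested.

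No subunit gene was called with VHH-OD-Fc against Ctrl. None of the 34 had an adjusted p under 0.05 in limma or an unadjusted p under 0.05, none was called with library weights, and over all genes 0% were called. The largest moderated t was that of Psmc1, with 95.8, 91.3 and 93.5 FPKM in VHH-OD-Fc, against 75.6, 92.9 and 97.4 FPKM in Ctrl (log2 fold change 0.08, SE 0.14). The lowest was that of Psmc2, with 25.8, 27.0 and 29.1 FPKM in VHH-OD-Fc, against 30.5, 30.6 and 30.2 FPKM in Ctrl (log2 fold change -0.15, SE 0.07, adjusted p = 1). The VHH-OD-Fc libraries of Psmc2 were all below the Ctrl libraries, and those of Psmc1 overlapped them. Fold changes were below 0 for 29 of the 34, with a median of -0.06, against -0.02 over all genes, and 7 members lay lower with no overlap and 0 higher, against 6.7% and 3.5% of all genes (10.2% in either direction). These signs depended on the scaling: 11 members were above 0 with median-of-ratios scaling, against 5 on FPKM. The medians were then -0.02 over the members and 0.01 over all genes. The 95% intervals of all 34 lay within -0.45 to 0.40.

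Between VHH-OD-PD-1-Fc and VHH-PD-1-Fc, no member was called, against 0.839% of all genes (0.538% higher and 0.301% lower), and library weights also gave 0. An unadjusted p under 0.05 in limma was found for 8 members, with no share over all genes at hand to set it against. The largest moderated t was that of Psmd12, with 41.6, 44.8 and 46.4 FPKM in VHH-OD-PD-1-Fc, against 33.2, 31.8 and 41.9 FPKM in VHH-PD-1-Fc (log2 fold change 0.31, SE 0.10, adjusted p = 0.170). The groups overlapped through VHH-PD-1-Fc replicate 3, without which Psmd12 was the 1 member called (log2 fold change 0.43, adjusted p = 0.021). The lowest was that of Psmb4, with 149.6, 145 and 146 FPKM in VHH-OD-PD-1-Fc, against 171, 155 and 173 FPKM in VHH-PD-1-Fc (log2 fold change -0.18, SE 0.09, adjusted p = 0.351). Libraries did not overlap for 11 members higher and 1 lower, against 13.8% and 7.25% of all genes (21% in either direction), and the median was 0.11 over the members and 0.04 over all genes. Psmd14, Psmd12, Psmd1 and Psmc2, which were called lower in VHH-PD-1-Fc against Ctrl and not in VHH-OD-PD-1-Fc relative to Ctrl, were not shown to differ between the groups (log2 fold changes 0.22, 0.31, 0.27 and 0.17, adjusted p = 0.200, 0.170, 0.201 and 0.294).

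The difference from additivity is the VHH-OD-PD-1-Fc change minus the sum of both single changes, all against Ctrl. It was called for no member, against 0.112% of all genes, and for 0 with library weights. Of the 34, 9 had an unadjusted p under 0.05 in limma, again with no share over all genes at hand. The difference was above 0 for 28 of the 34, with a median of 0.16, against 0.06 over all genes. With median-of-ratios scaling it was above 0 for 22, with a median of 0.07, against -0.01 over all genes. Psmd1, a scaffold gene of the base, had the highest value (0.44, SE 0.13, adjusted p = 0.254), with 17.5, 18.2 and 21.5 FPKM in VHH-OD-Fc, 15.0, 17.1 and 17.9 FPKM in VHH-PD-1-Fc, 19.6, 20.5 and 20.6 FPKM in VHH-OD-PD-1-Fc and 21.4, 22.0 and 21.0 FPKM in Ctrl. The VHH-OD-PD-1-Fc libraries of Psmd1 were above every VHH-PD-1-Fc library and below every Ctrl library. Psmd10 had the lowest (-0.18, SE 0.15, adjusted p = 0.710), at 19.2 to 19.96 FPKM in VHH-OD-Fc, 17.5 to 23.7 in VHH-PD-1-Fc, 18.6 to 19.1 in VHH-OD-PD-1-Fc and 17.9 to 20.1 in Ctrl. Without the 3 libraries that stood apart, 0 members were called here, between VHH-OD-PD-1-Fc and VHH-PD-1-Fc, and in VHH-OD-Fc against Ctrl. Asked whether any of the 4 groups differed, the moderated F test called 12 of the 34 members, against 49.7% of all genes.

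The 3 catalytic subunits of the constitutive core, all in the beta ring, did not move together on FPKM. Psmb5, with the chymotrypsin-like site, had 53.8, 57.3 and 63.7 FPKM in VHH-PD-1-Fc, 57.0, 51.9 and 57.1 in VHH-OD-PD-1-Fc, 38.5, 47.3 and 39.3 in VHH-OD-Fc and 45.7, 45.7 and 45.6 in Ctrl. Psmb6, with the caspase-like site, had 73.0, 65.5 and 79.5 FPKM in VHH-PD-1-Fc, 68.9, 72.0 and 73.6 in VHH-OD-PD-1-Fc, 70.4, 76.9 and 70.0 in VHH-OD-Fc and 73.6, 77.0 and 73.3 in Ctrl. Psmb7 averaged 21.2 ± 0.740 FPKM in VHH-PD-1-Fc, 23.6 ± 0.256 in VHH-OD-PD-1-Fc, 28.4 ± 0.453 in VHH-OD-Fc and 30.0 ± 1.45 in Ctrl (SD, n = 3 each). Psmb6 was not called (log2 fold change -0.04, 95% interval -0.23 to 0.15, in VHH-PD-1-Fc against Ctrl, and -0.06, -0.25 to 0.13, in VHH-OD-PD-1-Fc relative to Ctrl), while Psmb7 was called lower and Psmb5 higher in both on FPKM. With length and GC trends removed, Psmb6 was called lower in both (-0.37, adjusted p = 0.0104, and -0.40, adjusted p = 0.00737), as it was after rescaling to TPM (-0.27, adjusted p = 0.0247, and -0.29, adjusted p = 0.0188). Those trends removed, Psmb5 turned to -0.023 and -0.067, and the Psmb7 call in VHH-OD-PD-1-Fc relative to Ctrl was lost (-0.20, adjusted p = 0.0847), as it was with median-of-ratios scaling (-0.17, adjusted p = 0.103). A ratio of 2 genes in 1 library does not depend on that library's scaling, although trends with transcript length can still enter it. The longest annotated transcripts have 899 bases for Psmb5 and 2849 for Psmb7, but the ones expressed in these tumours may be of other lengths. Psmb5 over Psmb7, a pair picked after its values were seen, was 2.44 to 3.06 in VHH-PD-1-Fc, 2.20 to 2.44 in VHH-OD-PD-1-Fc, 1.33 to 1.69 in VHH-OD-Fc and 1.44 to 1.58 in Ctrl. The Psmb7 gene shares exon sequence with Nek6 on the opposite strand, and whether strand was used is not stated. Nek6 averaged 10.2 FPKM in VHH-PD-1-Fc, 12.1 in VHH-OD-PD-1-Fc and 10.3 in Ctrl, and was not called.

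**Figure D3:**
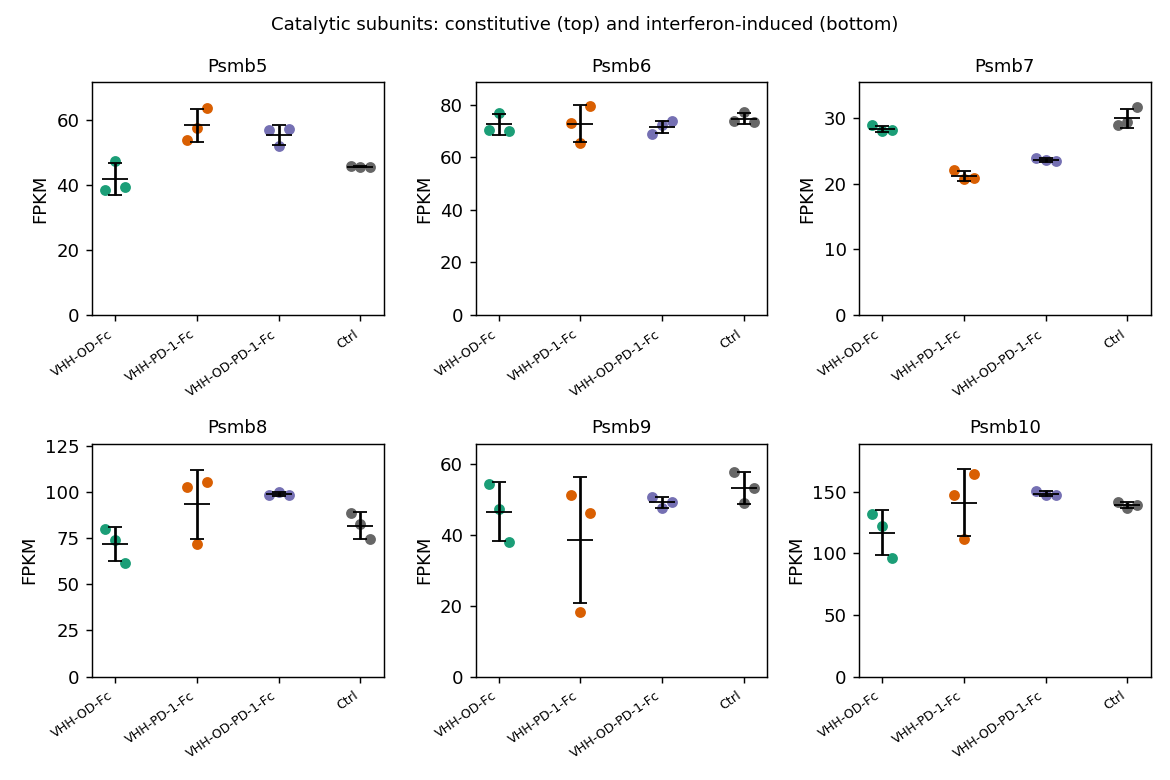
FPKM of the constitutive catalytic subunits Psmb5, Psmb6 and Psmb7 (top) and of their interferon-induced counterparts Psmb8, Psmb9 and Psmb10 (bottom) in each library, by group, with the mean and SD of 3 libraries. Psmb7 in both PD-1 binder groups (20.7 to 23.9 FPKM) lies below every VHH-OD-Fc and Ctrl library (28.0 to 31.7 FPKM), and Psmb6 overlaps in all groups.

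Of the 3 interferon-induced subunits, none was called against Ctrl with VHH-PD-1-Fc or with VHH-OD-PD-1-Fc. Psmb8 was called higher in VHH-OD-PD-1-Fc against VHH-OD-Fc, with 98.3, 100.04 and 98.4 FPKM in VHH-OD-PD-1-Fc libraries, against 80.1, 74.1 and 61.8 FPKM in VHH-OD-Fc libraries (log2 fold change 0.46, SE 0.15, adjusted p = 0.0290). That call held in 14 of 24 settings and was lost without VHH-OD-Fc replicate 2 or 3 or any 1 of the VHH-OD-PD-1-Fc libraries (adjusted p of up to 0.111). Psmb9 was lowest in VHH-PD-1-Fc replicate 2, at 18.3 FPKM, against 37.9 FPKM or more in every other library. Per library, Psmb8 over Psmb5 was 1.25 to 1.91 in VHH-PD-1-Fc, 1.72 to 1.93 in VHH-OD-PD-1-Fc, 1.56 to 2.08 in VHH-OD-Fc and 1.63 to 1.94 in Ctrl, and the ranges overlapped in all groups. Psmb9 over Psmb6 also overlapped, at 0.280 to 0.701 in VHH-PD-1-Fc, 0.661 to 0.737 in VHH-OD-PD-1-Fc, 0.541 to 0.774 in VHH-OD-Fc and 0.635 to 0.785 in Ctrl. Psmb10 over Psmb7 was 5.38 to 7.91 in VHH-PD-1-Fc and 6.24 to 6.31 in VHH-OD-PD-1-Fc, above 3.41 to 4.55 in VHH-OD-Fc and 4.38 to 4.88 in Ctrl. Psmb10 itself averaged 140.9 FPKM in VHH-PD-1-Fc, 148.4 in VHH-OD-PD-1-Fc, 116.6 in VHH-OD-Fc and 139.1 in Ctrl. Psmb7 averaged 21.2, 23.6, 28.4 and 30.0 FPKM in the same order. Trends with transcript length can enter this ratio too.

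Summed over its genes, the 20S core had 1248 to 1379 FPKM in VHH-PD-1-Fc, 1337 to 1346 in VHH-OD-PD-1-Fc, 1075 to 1105 in VHH-OD-Fc and 1109 to 1198 in Ctrl. The 19S regulatory particle had 871 to 920 FPKM in VHH-PD-1-Fc, 940 to 954 in VHH-OD-PD-1-Fc, 872 to 919 in VHH-OD-Fc and 889 to 951 in Ctrl. On FPKM, the core sums of both PD-1 binders lay above every VHH-OD-Fc and Ctrl library. The 19S sums of all 3 treated groups overlapped those of Ctrl. Whole libraries also summed to more FPKM with both PD-1 binders (388142 to 401179, against 327792 to 345596 in VHH-OD-Fc and Ctrl), so such sums depend on the scaling. The core over the regulatory particle was 1.39 to 1.58 in VHH-PD-1-Fc, 1.41 to 1.42 in VHH-OD-PD-1-Fc, 1.19 to 1.23 in VHH-OD-Fc and 1.24 to 1.26 in Ctrl. These sums weight genes by their level, and without Psma6 the mean ratio was 0.148 higher in VHH-PD-1-Fc than in Ctrl and 0.105 higher in VHH-OD-PD-1-Fc than in Ctrl, against 0.218 and 0.168 with it. Core transcripts are shorter, with a median of 1220 bases for core genes and 1986 for regulatory genes (longest GENCODE M21 transcript). With length and GC trends over all genes removed, the ratio was 1.32 to 1.49 in VHH-PD-1-Fc, 1.34 to 1.36 in VHH-OD-PD-1-Fc, 1.25 to 1.30 in VHH-OD-Fc and 1.31 to 1.34 in Ctrl, and the VHH-PD-1-Fc and Ctrl ranges then overlapped.

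**Figure D4:**
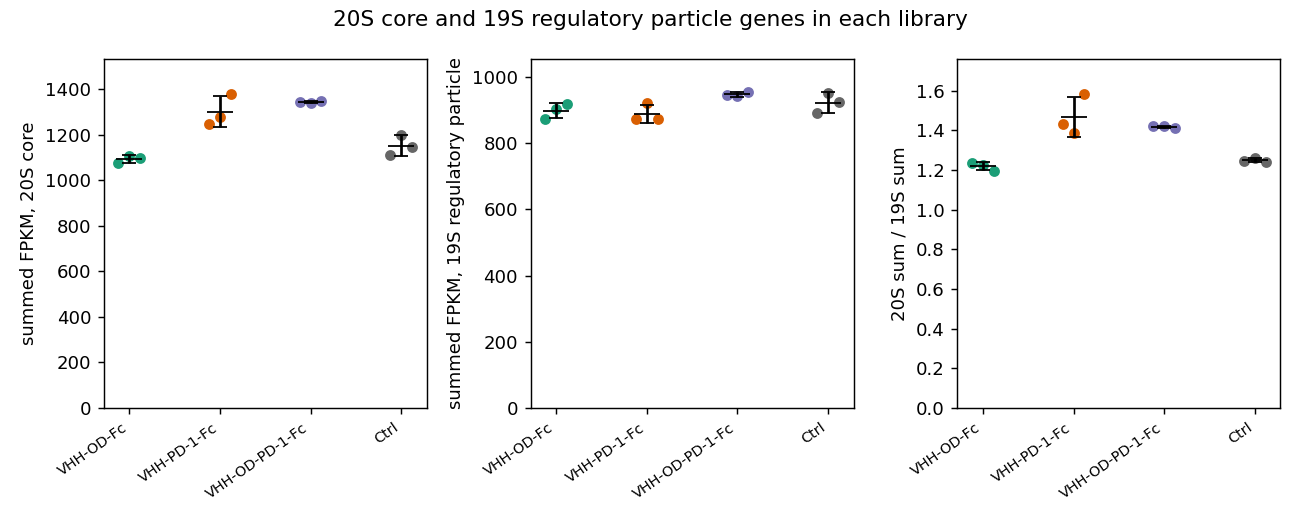
Summed FPKM of the 20S core genes, summed FPKM of the 19S regulatory particle genes, and their ratio, per library and group, with the mean and SD of 3 libraries. The ratio lies at 1.39 to 1.58 in VHH-PD-1-Fc and 1.41 to 1.42 in VHH-OD-PD-1-Fc, above VHH-OD-Fc and Ctrl (1.19 to 1.26); with length and GC trends removed the VHH-PD-1-Fc range (1.32 to 1.49) overlaps that of Ctrl (1.31 to 1.34).

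Longer members tended to have lower fold changes with the PD-1 binders. Across the 34 members, Spearman's rho between transcript length and log2 fold change was -0.54 in VHH-PD-1-Fc against Ctrl, -0.37 in VHH-OD-PD-1-Fc relative to Ctrl and -0.25 in VHH-OD-Fc against Ctrl, which describes genes of the same libraries and carries no test. Across the 13533 tested genes with a length, rho was -0.32, -0.35 and 0.00 in the same comparisons. Among all genes within the members' lengths, 859 to 4397 bases, the median log2 fold change was -0.16 in VHH-PD-1-Fc and -0.11 in VHH-OD-PD-1-Fc, against -0.03 and 0.03 for the members. Psmb3, at 1509 bases, lay above the line of all genes of its length (0.53 against 0.00 in VHH-PD-1-Fc against Ctrl), and Psmb7, at 2849 bases, lay below it (-0.48 against -0.19). All these lengths are those of the longest annotated transcript, which need not be the one expressed.

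**Figure D5:**
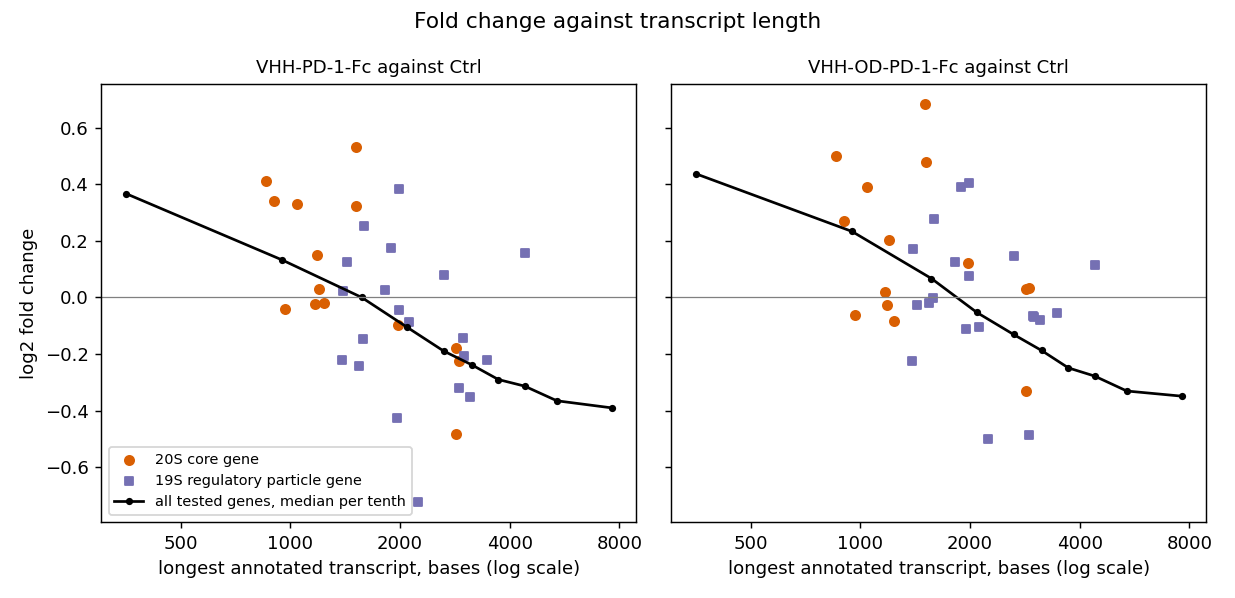
Log2 fold change of the 34 tested subunit genes against the length of the longest transcript (log axis), for VHH-PD-1-Fc against Ctrl and VHH-OD-PD-1-Fc relative to Ctrl; circles are 20S genes, squares 19S genes, and the black line is the median of all genes tested in each of 10 bins of length. Both the line and the members run downward with length (rho of -0.54 and -0.37 for the members), with Psmb3 above the line and Psmb7 and Psmc6 below it.

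Genes that build, bind or regulate the proteasome, from lists by function, also moved in both directions. Their counts stand against 14.6% of all genes called higher and 32.3% lower in VHH-PD-1-Fc against Ctrl, 15.1% and 27.1% in VHH-OD-PD-1-Fc relative to Ctrl, and 15.4% and 24.5% in VHH-OD-PD-1-Fc against VHH-OD-Fc. Of 5 chaperones of 20S assembly, 3 rose and 0 fell in VHH-PD-1-Fc against Ctrl and 4 and 0 in VHH-OD-PD-1-Fc relative to Ctrl (median log2 fold changes 0.25 and 0.35), although after rescaling to TPM the counts were 0 and 1 in both. In VHH-PD-1-Fc against Ctrl, the calls of Psmg2, Psmg4 and Psmg3 held in 9 of 24, 14 of 24 and 20 of 23 settings. In VHH-OD-PD-1-Fc relative to Ctrl, those of Psmg3, Psmg2, Psmg4 and Pomp held in 7 of 23, 14 of 24, 21 of 24 and 22 of 24. Leaving out 1 library ended the Psmg2 call in VHH-PD-1-Fc and the Psmg3 call in VHH-OD-PD-1-Fc in 9 of 12 fits each. Pomp, which helps the beta ring to mature, had 38.6, 38.7 and 37.4 FPKM in VHH-OD-PD-1-Fc libraries, against 25.4, 28.5 and 28.4 FPKM in Ctrl libraries (log2 fold change 0.47, SE 0.10, adjusted p = 0.00500). Psmg4, a chaperone of core assembly, had 65.7, 71.0 and 71.0 FPKM in VHH-OD-PD-1-Fc libraries, against 40.4, 49.1 and 43.8 FPKM in Ctrl libraries (log2 fold change 0.63, SE 0.17, adjusted p = 0.0130). Both genes were above Ctrl in every VHH-OD-PD-1-Fc library. Of 8 other genes tested whose products belong to or bind the 26S particle, 1 rose and 4 fell in VHH-PD-1-Fc and 1 rose and 2 fell in VHH-OD-PD-1-Fc, both against Ctrl. Sem1, a small lid subunit outside the symbol rule, had 35.9, 48.6 and 47.1 FPKM in VHH-PD-1-Fc libraries, against 24.1, 29.1 and 26.5 FPKM in Ctrl libraries (log2 fold change 0.70, SE 0.13, adjusted p = 0.00161). Zfand5, a zinc finger protein that binds the proteasome, had 5.45, 4.44 and 7.86 FPKM in VHH-PD-1-Fc libraries, against 10.4, 12.2 and 11.2 FPKM in Ctrl libraries (log2 fold change -0.86, SE 0.15, adjusted p = 0.00103). Sem1 was above and Zfand5 below Ctrl in every VHH-PD-1-Fc library, and both calls held in 24 of 24 settings.

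Of 5 genes listed as the NRF1 pathway, 0 rose and 3 fell in VHH-PD-1-Fc against Ctrl, where 32.3% of all genes were called lower, and 0 and 3 in VHH-OD-PD-1-Fc relative to Ctrl, where 27.1% were. The list holds Nfe2l1, Ddi2, Vcp, Ngly1 and also Nfe2l2, which codes for another factor, NRF2. Ngly1 and Nfe2l2 were not called in either comparison. Ddi2, the protease that activates NRF1, had 4.13, 4.35 and 4.86 FPKM in VHH-PD-1-Fc libraries, against 6.87, 6.63 and 6.98 FPKM in Ctrl libraries (log2 fold change -0.52, SE 0.08, adjusted p = 0.000736). Vcp, the segregase that draws NRF1 out of the endoplasmic reticulum, fell by 0.45 (adjusted p = 0.00247), and Nfe2l1 itself by 0.47 (adjusted p = 0.0391), on the log2 scale. The Ddi2 call held in 24 of 24 settings and the Nfe2l1 call in 6 of 24; it was lost without any 1 library other than VHH-PD-1-Fc replicate 1 (adjusted p of up to 0.104). Of 9 ubiquitin and shuttle factor genes, 0 rose and 4 fell in VHH-PD-1-Fc against Ctrl and 1 rose and 4 fell in VHH-OD-PD-1-Fc relative to Ctrl. Ubqln1, which carries ubiquitinated proteins to the proteasome, had 19.9, 18.4 and 17.7 FPKM in VHH-PD-1-Fc libraries, against 23.0, 23.1 and 25.9 FPKM in Ctrl libraries (log2 fold change -0.35, SE 0.09, adjusted p = 0.0109), with no overlap between the groups. Of 5 activators and inhibitors of the core, 1 rose and 2 fell in VHH-PD-1-Fc and 2 rose and 1 fell in VHH-OD-PD-1-Fc, both against Ctrl; Psme1, a subunit of the interferon-induced cap, was at 201 to 236 FPKM in VHH-PD-1-Fc, 203 to 212 in VHH-OD-PD-1-Fc and 152 to 172 in Ctrl. With median-of-ratios scaling, higher and lower calls in VHH-PD-1-Fc against Ctrl became 0 and 1 for the NRF1 pathway, 2 and 2 for ubiquitin and shuttle factor genes, 1 and 1 for the other 26S genes and 2 and 0 for activators and inhibitors, the last of which were 0 and 3 after rescaling to TPM. In VHH-OD-PD-1-Fc against VHH-OD-Fc, higher and lower calls were 4 and 0 of the 5 assembly chaperones, 2 and 2 of the 8 other 26S genes, 0 and 1 of the 5 NRF1 pathway genes, 0 and 2 of the 9 shuttle and ubiquitin genes and 1 and 1 of the 5 activators and inhibitors. In VHH-OD-Fc against Ctrl none of these genes was called.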

How the data were processed

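Poly(A) RNA of tumours was sequenced in paired 150-base reads, 3 libraries in each of 4 groups. Per the submitters' processing notes, fastp 0.22.0, HISAT2 2.2.1 and the build GRCh38 were used; GRCh38 is a human build while the symbols are those of mouse, so no coordinate was taken from the table. The annotation, the counting tool and the use of strand were not given in the sources used here. The authors deposited FPKM per gene and library, and since FPKM are no counts, count models were left aside. FPKM of 1 group and another are comparable only as far as their sums allow.

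Groups came from the sample labels, with which the design text of the series conflicts. Genes with at least 1 FPKM in at least 3 of the 12 libraries (14306 of 41009) were tested in 1 fit over the 12 libraries with limma 3.58.1 in R 4.3.3 (moderated test with a mean-variance trend on log2(FPKM + 1), 8 residual degrees of freedom, two-sided, Benjamini-Hochberg over all genes in each of 6 comparisons, called at adjusted p under 0.05). The pseudocount of 1 makes a fold change understate that of low genes. Transcript lengths and GC content came from GENCODE M21 for 94.6% of tested genes. They are those of each gene's longest transcript, which need not be the one expressed. By exons, 9 of the 34 tested members overlap another gene, and their FPKM may include its reads. Intervals are 95% intervals of the fit. The tests were checked on simulated data. The members, lists and tests were chosen with earlier results of these data known. Values per library are given for the catalytic subunits, Psmd14, and up to 3 called members of largest rise and of largest fall in each comparison, or, with none called, those of highest and lowest moderated t; further genes come from lists by function, with the examples picked after their values were seen. Alternatives were other scalings (TPM, median of ratios, quantile), removal of length and GC trends, another pseudocount and filters, library weights, subsets of libraries and a replicate block; 4 alternatives for the core ratio were added after seeing the data.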

Additional observations from a re-analysis of the deposited data

How the results depend on the processing

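Counts of members called depended on the scaling; the cause was not tested. Higher and lower calls of the 34 are given for VHH-PD-1-Fc against Ctrl, VHH-OD-PD-1-Fc relative to Ctrl and VHH-OD-PD-1-Fc against VHH-OD-Fc. They were 1 and 18, 2 and 14, and 3 and 7 after rescaling to TPM. With median-of-ratios scaling they were 13 and 2, 12 and 0, and 15 and 0. Of all 14306 genes, 1346 and 6800, 1415 and 6192, and 1369 and 5616 were called with TPM. The median of ratios gave 3145 and 2879, 3006 and 2593, and 2888 and 2537 over all genes. The median of all genes moved to -0.43 and -0.01 with these scalings in VHH-PD-1-Fc against Ctrl, to -0.37 and -0.00 in VHH-OD-PD-1-Fc relative to Ctrl, and to -0.34 and -0.00 in VHH-OD-PD-1-Fc against VHH-OD-Fc. Quantile normalization gave 5 and 4, 5 and 5, and 6 and 3. Over all 14306 genes it gave 2815 and 2593, 2670 and 2573, and 2609 and 2467. Removal of length and GC trends gave 3 and 10, 3 and 5, and 6 and 4. Of the 13533 genes then tested, 1655 and 3770, 1719 and 2980, and 1769 and 2608 were called. Library weights gave 4 and 4, 12 and 4, and 15 and 3. All genes then had 1566 and 3549, 3675 and 6226, and 3412 and 5304 calls. Fits of the groups compared alone gave 2 and 1, 9 and 4, and 13 and 3, and give no additivity value. For all genes these fits gave 1229 and 2592, 2752 and 4834, and 3139 and 4885. With the libraries of VHH-OD-PD-1-Fc as 1 sample, counts were 5 and 4, 1 and 0, and 2 and 0. Without the 3 libraries that stood apart, member counts were 3 and 5, 7 and 3, and 11 and 3. Counts over all genes were then 1832 and 3448, 2356 and 3850, and 2565 and 3779. Leaving out 1 library gave 5 to 7 and 4 to 8, 6 to 9 and 2 to 4, and 6 to 9 and 0 to 3; in VHH-OD-PD-1-Fc against VHH-PD-1-Fc 0 to 1 was higher. The 0 came without VHH-OD-Fc replicate 1, VHH-OD-PD-1-Fc replicate 2 or VHH-OD-PD-1-Fc replicate 3. In VHH-PD-1-Fc against Ctrl, Psmc5 turned to -0.21 with TPM and -0.18 with length and GC trends removed, and was called lower in both (adjusted p = 0.0424 and 0.0487), and Psmb5 to -0.023 with those trends removed. With those trends removed Psmb5 also turned to -0.067 in VHH-OD-PD-1-Fc relative to Ctrl.

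The core ratio was 0.218 higher in VHH-PD-1-Fc and 0.168 higher in VHH-OD-PD-1-Fc than in Ctrl. These differences were 0.0778 and 0.0288 with length and GC trends removed, 0.107 and 0.0662 with quantile normalization, 0.148 and 0.105 without Psma6, 0.240 and 0.224 with geometric means, and 0.160 to 0.258 and 0.164 to 0.174 leaving out 1 library.

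With the replicate number as a block, member counts were 6 and 6, 6 and 3, and 7 and 3. Counts over all genes were then 1965 and 4419, 2052 and 3701, and 2105 and 3348. Of 18 pairs of same-numbered libraries, 1 had a correlation of deviations over 0.1 (range -0.15 to 0.18), and 3 of 12 libraries correlated best with their own number, so the numbers were not taken as pairs.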
